A study of Mus musculus with 4 samples.

Results

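The 34 genes described here encode the contractile proteins of skeletal muscle fibres and the calcium-handling and energy enzymes that serve them. They were chosen by gene symbol, and each symbol matched 1 row among the 32285 genes of the count matrices. The data are single-cell RNA-seq counts of mononuclear cells from 4 libraries of mouse muscle at 14 weeks of age, 1 library for each of the mdx5cv/Ccr2-/- diaphragm, the mdx5cv diaphragm, the mdx5cv/Ccr2-/- quadriceps and the mdx5cv quadriceps. All 4 groups carry mdx5cv, a mutation of the dystrophin gene that models Duchenne muscular dystrophy, and the mdx5cv/Ccr2-/- mice in addition lack the chemokine receptor Ccr2, which brings monocytes from blood into injured muscle. The number of animals in each library is not given in the sources used here. With 1 library per group, differences between genotypes or muscles have no replicate check and carry no p-value.

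In a sarcomere, thick filaments of myosin pull on thin filaments of actin, titin spans from the Z disc to the middle of the thick filament, and troponin and tropomyosin let myosin bind when calcium is released through the ryanodine receptor. Fibre types differ in the isoforms they use, and newly formed fibres use the embryonic and perinatal myosin heavy chains Myh3 and Myh8. Muscle fibres are syncytia too large for droplets. A preparation of mononuclear cells therefore holds their transcripts in myogenic cells that have begun to differentiate, in fragments of fibres, or as free RNA that enters droplets with other cells.

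Each count is a UMI, a tag that stands for 1 captured RNA molecule at its 3′ end, and CPM is a gene's UMIs per 1000000 UMIs of the library or class named. The libraries held 56399477 to 92189580 UMIs over 5839 to 13175 barcodes, and pairs of libraries shared at most 0.411% of their barcodes. Ccr2 had 8.71 CPM in the mdx5cv/Ccr2-/- diaphragm and 131 CPM in the mdx5cv diaphragm, and 15.1 CPM in the mdx5cv/Ccr2-/- quadriceps and 247 CPM in the mdx5cv quadriceps, so that it was lower in both libraries labelled as knockout. Which part of Ccr2 is deleted is not given in the sources used here, and tags outside a deleted part would still be counted.

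Transcripts of the 34 genes were a trace of each library. They made up 0.0397% of UMIs in the mdx5cv/Ccr2-/- diaphragm (26769 UMIs) and 0.0647% in the mdx5cv diaphragm (59606 UMIs), and 0.108% in the mdx5cv/Ccr2-/- quadriceps (71732 UMIs) and 0.0374% in the mdx5cv quadriceps (21066 UMIs). The mdx5cv/Ccr2-/- quadriceps was highest and the mdx5cv quadriceps lowest. In such library sums, fewer cells of a type and less RNA per cell cannot be told apart. Tpm2, the beta-tropomyosin of the thin filament (chromosome 4, 43514711 to 43523765, minus strand; all gene positions are on GRCm38), alone held 26.5% of the member UMIs. Sums are therefore also given over the other 33 genes.

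Barcodes were assigned to cell classes by marker UMIs, and none of the 34 genes was a marker. A barcode with at least 2 UMIs of Myog, the transcription factor of muscle differentiation, was called Myog-positive. A barcode with at least 2 UMIs of Pax7 and Myf5, the transcription factors of muscle stem cells and myoblasts, and none of Myog was called Pax7/Myf5. The gates found 10 Myog-positive cells in the mdx5cv/Ccr2-/- diaphragm and 50 in the mdx5cv diaphragm, and 41 in the mdx5cv/Ccr2-/- quadriceps and 12 in the mdx5cv quadriceps. Pax7/Myf5 cells numbered 91 in the mdx5cv/Ccr2-/- diaphragm and 202 in the mdx5cv diaphragm, and 238 in the mdx5cv/Ccr2-/- quadriceps and 134 in the mdx5cv quadriceps. Genes outside the gates followed these names. The fusion gene Mymk had a UMI in 41.7% to 60% of Myog-positive cells and in at most 1.49% of Pax7/Myf5 cells, whereas the stem cell receptor gene Calcr had none in any Myog-positive cell and a UMI in 20.3% to 32.8% of Pax7/Myf5 cells.

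Per cell, Myog-positive cells carried more myofibre transcripts than Pax7/Myf5 cells, and these carried more than fibroblasts, endothelial cells or macrophages and monocytes. Summed over the 33 genes without Tpm2, 1000 Myog-positive cells would hold 39800 UMIs in the mdx5cv/Ccr2-/- diaphragm and 224540 in the mdx5cv diaphragm, and 123341 in the mdx5cv/Ccr2-/- quadriceps and 146500 in the mdx5cv quadriceps. For 1000 Pax7/Myf5 cells the sums were 7044 in the mdx5cv/Ccr2-/- diaphragm and 7599 in the mdx5cv diaphragm, and 8798 in the mdx5cv/Ccr2-/- quadriceps and 8940 in the mdx5cv quadriceps. For 1000 fibroblasts they were 1449 in the mdx5cv/Ccr2-/- diaphragm and 1413 in the mdx5cv diaphragm, and 1680 in the mdx5cv/Ccr2-/- quadriceps and 601 in the mdx5cv quadriceps. Over the 4 libraries the ranges of these classes did not overlap, with the Myog-positive cells of the mdx5cv/Ccr2-/- diaphragm nearest to the Pax7/Myf5 cells. Endothelial cells held 439 to 2256 UMIs per 1000 cells and macrophages or monocytes 1099 to 2949, a range that overlapped with that of fibroblasts.

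**Figure D1:**
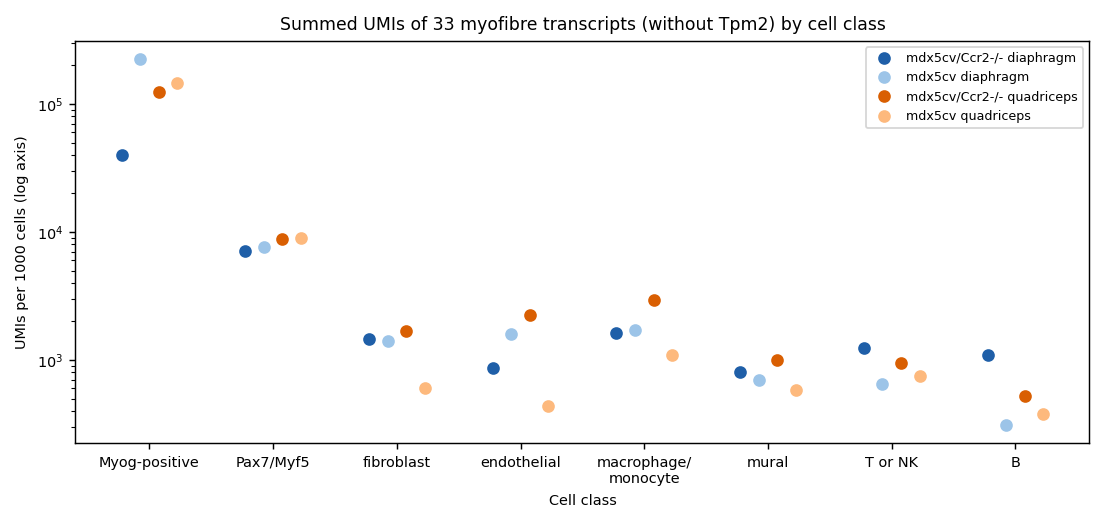
Summed UMIs of 33 myofibre transcripts (without Tpm2) per 1000 cells, on a log axis, by cell class, with 1 point per library. Myog-positive cells lie between 39800 and 224540, Pax7/Myf5 cells between 7044 and 8940, and fibroblasts, endothelial cells and macrophages or monocytes at or below 2949.

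Although richest per cell, the 2 myogenic classes together held only 15.9% of all member UMIs. In the mdx5cv/Ccr2-/- diaphragm 1.70% of the library's member UMIs lay in Myog-positive cells, against 20.1% in the mdx5cv diaphragm, and the share was 7.88% in the mdx5cv/Ccr2-/- quadriceps and 9.21% in the mdx5cv quadriceps. Fibroblasts, the most numerous class of the diaphragm, held 42.5% in the mdx5cv/Ccr2-/- and 29.4% in the mdx5cv diaphragm, and 8.73% in the mdx5cv/Ccr2-/- and 13.5% in the mdx5cv quadriceps. Barcodes that no marker set claimed held 20.4% in the mdx5cv/Ccr2-/- and 20.6% in the mdx5cv diaphragm, and 50.9% in the mdx5cv/Ccr2-/- and 31.3% in the mdx5cv quadriceps. Pooled over the libraries, 57.0% of the Myh3 UMIs in barcodes past the cell filter lay in Myog-positive cells, as did 53.2% of those of Tnni1 (slow troponin I), 50.5% of those of Ttn and 41.1% of those of Neb. Every other member had at most 27.9% of its UMIs there. Mybpc1, the slow myosin-binding protein C, had 10.6% in Myog-positive cells, and in Pax7/Myf5 cells 39.3% of its UMIs in the mdx5cv/Ccr2-/- and 40.9% in the mdx5cv diaphragm, and 50.4% in the mdx5cv/Ccr2-/- and 49.4% in the mdx5cv quadriceps. Pvalb, Myoz1, Tnnc2, Myl1, Ckm and Tnnt3 had 60.1% to 73.9% of theirs in unassigned barcodes.

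**Figure D2:**
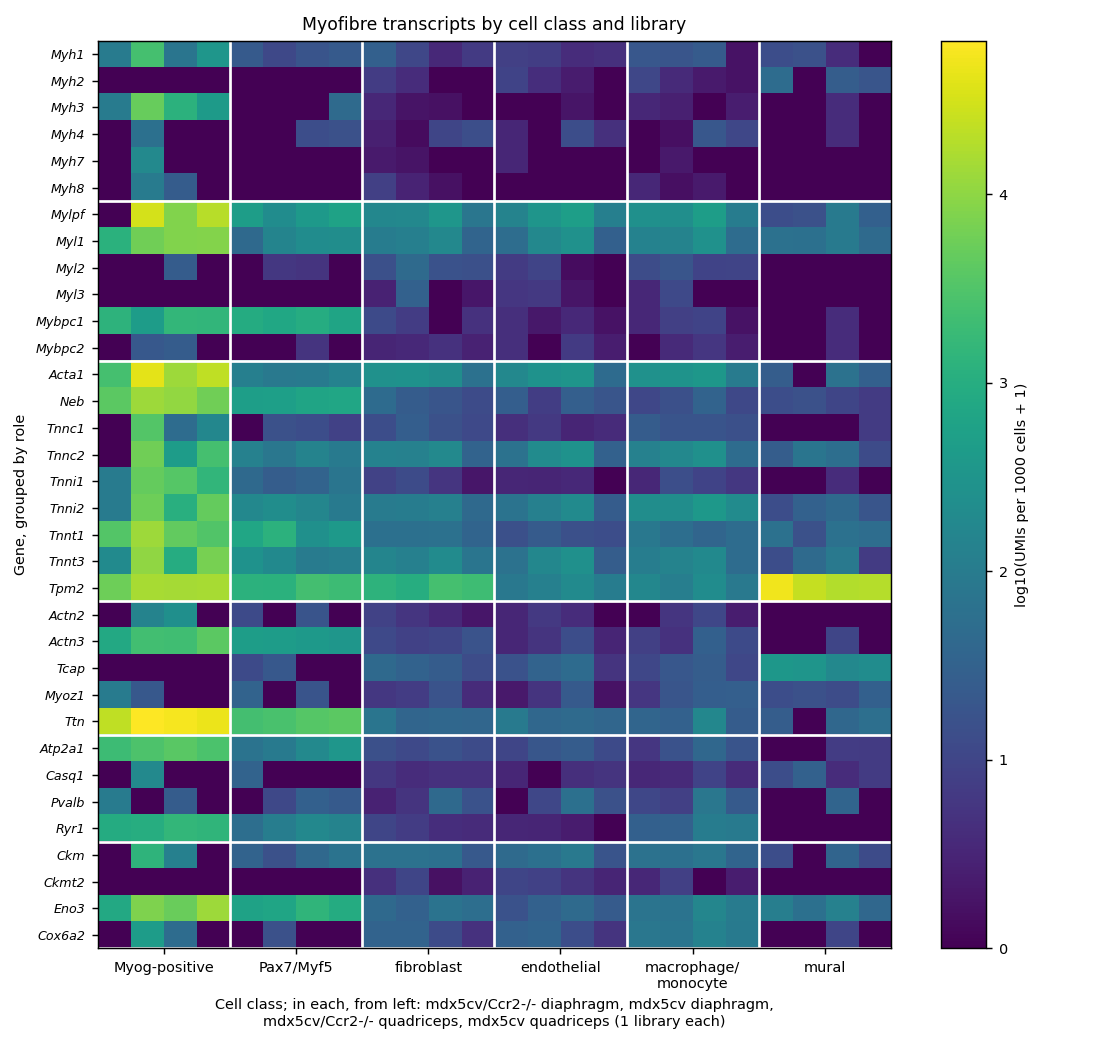
Each of the 34 genes (rows, grouped by role) in each cell class and library (columns), coloured by log10 of UMIs per 1000 cells plus 1. Within a class the libraries run mdx5cv/Ccr2-/- diaphragm, mdx5cv diaphragm, mdx5cv/Ccr2-/- quadriceps, mdx5cv quadriceps. The Myog-positive columns are brightest for Ttn and the mural columns for Tpm2, and the Mybpc1 row is bright in both myogenic classes.

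The question whether myofibre genes come on between the Pax7/Myf5 and the Myog-positive state was tested within libraries, with the 4 libraries as samples although each is another genotype and muscle. 17 of the 18 members that passed the filter on low counts were higher in Myog-positive cells and none was lower (edgeR's quasi-likelihood test with Benjamini-Hochberg adjustment over 8331 genes, adjusted p under 0.05). At an unadjusted p under 0.05, 17 were higher and 1, Mybpc1, was lower, and DESeq2 called 0 lower. Over all genes tested, 13% were called higher and 13.9% lower. The median log2 fold change of the 18 members was 3.0, against -0.03 over all genes. The 16 members that were not tested had too few UMIs in these cells, and since a gene could pass through the class in which it is high, the counts cover only the 18.

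Titin, the spring of the sarcomere, had the most UMIs of the members in both myogenic classes (Ttn, chromosome 2, 76703980 to 76982547, minus strand). In Myog-positive cells it had 1367 CPM in the mdx5cv/Ccr2-/- and 4193 CPM in the mdx5cv diaphragm, and 3233 CPM in the mdx5cv/Ccr2-/- and 1875 CPM in the mdx5cv quadriceps. In Pax7/Myf5 cells it had 233 CPM in the mdx5cv/Ccr2-/- and 332 CPM in the mdx5cv diaphragm, and 380 CPM in the mdx5cv/Ccr2-/- and 405 CPM in the mdx5cv quadriceps. The classes did not overlap. The log2 fold change was 2.88 (SE 0.186, adjusted p 2.07e-08 in edgeR's test, higher in 4 of 4 libraries).

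Skeletal alpha-actin, the core of the thin filament, moved further (Acta1, chromosome 8, 123891769 to 123894751, minus strand). Its level in Myog-positive cells was 154 CPM in the mdx5cv/Ccr2-/- and 2710 CPM in the mdx5cv diaphragm, and 740 CPM in the mdx5cv/Ccr2-/- and 914 CPM in the mdx5cv quadriceps. In Pax7/Myf5 cells it was 12.1 CPM in the mdx5cv/Ccr2-/- and 11 CPM in the mdx5cv diaphragm, and 10.7 CPM in the mdx5cv/Ccr2-/- and 13.7 CPM in the mdx5cv quadriceps. All 4 Myog-positive values lay above all Pax7/Myf5 values, with a log2 fold change of 6.38 (SE 0.376, adjusted p 1.07e-08 in edgeR's test).

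The fast regulatory light chain of myosin was less even (Mylpf, chromosome 7, 127208890 to 127214298, plus strand). Myog-positive cells held no Mylpf UMI in the mdx5cv/Ccr2-/- diaphragm (which allows up to 18.5 CPM) and 2039 CPM in the mdx5cv diaphragm, and 457 CPM in the mdx5cv/Ccr2-/- and 795 CPM in the mdx5cv quadriceps. Pax7/Myf5 cells averaged 45.0 ± 13.4 CPM (SD, n = 4 libraries). The gene was higher in 3 of 4 libraries, with a log2 fold change of 3.72 (SE 0.613, adjusted p 0.000292 in edgeR's test). With DESeq2 this call was lost (adjusted p 0.148), as was that of Tnnc2 (adjusted p 0.344 with DESeq2), which was also lost without the mdx5cv diaphragm (log2 fold change 1.59, adjusted p 0.0622).

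The sequences just upstream of these 3 genes, those with the most UMIs in Myog-positive cells, are shown because all 3 genes were higher in Myog-positive cells. Each line gives the 250 bases before the annotated start on the gene's strand, from RefSeq's GRCm38.p6, with CAGCTG (a motif of the E-box kind, which Myog and Myod1 can bind) or the MEF2 motif in capitals. The RefSeq start of Mylpf used here lies within the gene's GENCODE bounds.
Ttn, chr2:76982548-76982797, minus strand: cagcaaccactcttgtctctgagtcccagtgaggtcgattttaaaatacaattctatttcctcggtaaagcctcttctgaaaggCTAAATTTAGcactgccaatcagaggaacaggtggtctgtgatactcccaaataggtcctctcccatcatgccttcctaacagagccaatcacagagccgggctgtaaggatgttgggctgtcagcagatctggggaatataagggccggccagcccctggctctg
Acta1, chr8:123894776-123895025, minus strand: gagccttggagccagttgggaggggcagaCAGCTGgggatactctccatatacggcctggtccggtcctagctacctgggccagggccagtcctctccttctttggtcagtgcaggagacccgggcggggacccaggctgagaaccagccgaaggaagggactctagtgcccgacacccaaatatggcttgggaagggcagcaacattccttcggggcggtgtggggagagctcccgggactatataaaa
Mylpf, chr7:127211358-127211607, plus strand: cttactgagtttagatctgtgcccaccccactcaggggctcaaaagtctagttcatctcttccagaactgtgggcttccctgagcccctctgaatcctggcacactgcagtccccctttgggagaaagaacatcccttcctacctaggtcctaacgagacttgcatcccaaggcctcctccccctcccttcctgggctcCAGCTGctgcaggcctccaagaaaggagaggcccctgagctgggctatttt
The Ttn stretch held 1 MEF2 motif, 166 bases before the start, and no CAGCTG. The Acta1 stretch held CAGCTG 221 bases and the Mylpf stretch 51 bases before the start. Among the 31 promoters of the 27 members found in RefSeq's table, 41.9% held CAGCTG, against 13.0% of all 32851 promoters, and 16.1% held the MEF2 motif on either strand, against 2.92% of all. CAGCTG reads the same on both strands, and the motifs do not overlap. A match describes the letters only.

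Among the gated classes of the mdx5cv diaphragm and the mdx5cv/Ccr2-/- quadriceps, Myh3, the embryonic heavy chain, was seen mostly in Myog-positive cells. In these cells it had 1 UMI (6.16 CPM) in the mdx5cv/Ccr2-/- and 251 UMIs (323 CPM) in the mdx5cv diaphragm, and 51 UMIs (70.6 CPM) in the mdx5cv/Ccr2-/- and 5 UMIs (16.6 CPM) in the mdx5cv quadriceps. Pax7/Myf5 cells had 6 UMIs in the mdx5cv quadriceps and none in the other 3 libraries. With these counts, Myh3 passed the filter on low counts only through Myog-positive cells, so its call adds no support beyond the counts. The gene was called higher (adjusted p 2.45e-06 in edgeR's test), and its fitted log2 fold change of 6.58 depends on how the zeros are handled. Leaving out the mdx5cv diaphragm gave 4.64, and leaving out the mdx5cv quadriceps gave 10.27. The UMIs lay in few cells: 1 of 10 Myog-positive cells in the mdx5cv/Ccr2-/- and 16 of 50 in the mdx5cv diaphragm, and 7 of 41 in the mdx5cv/Ccr2-/- and 3 of 12 in the mdx5cv quadriceps.

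The other heavy chains were sparse in myogenic cells. Myh1 had 1 UMI in Myog-positive cells of the mdx5cv/Ccr2-/- and 122 of the mdx5cv diaphragm, and 3 of the mdx5cv/Ccr2-/- and 4 of the mdx5cv quadriceps. It was called higher than in Pax7/Myf5 cells (log2 fold change 4.32, SE 0.66, adjusted p 0.000153 in edgeR's test), a value carried by the mdx5cv diaphragm, without which Myh1 did not pass the filter. Myh2 had no UMI in these cells in any library. Myh4, Myh7 and Myh8 had 3, 9 and 6 UMIs over the 4 libraries.

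Among the other thick and thin filament genes, Tnni1 had a log2 fold change of 5.05 (SE 0.446, adjusted p 5.63e-07; 142 ± 135 CPM in Myog-positive and 4.70 ± 2.02 CPM in Pax7/Myf5 cells, SD, n = 4). Myl1, the fast essential light chain, had one of 4.16 (SE 0.181, adjusted p 3.13e-10; 312 ± 166 CPM in Myog-positive and 17.5 ± 9.09 CPM in Pax7/Myf5 cells). The fast troponins Tnnt3, Tnnc2 and Tnni2 were higher by 2.94 to 3.52 on the log2 scale in 3 of 4 libraries each, with the mdx5cv/Ccr2-/- diaphragm as the exception. Neb, the ruler of the thin filament, and Tnnt1, slow troponin T, rose by 2.79 (SE 0.251) and 2.29 (SE 0.228) on the log2 scale. Tpm2, already present in Pax7/Myf5 cells at 185 ± 62.8 CPM, was at 689 ± 271 CPM in Myog-positive cells, a log2 fold change of 1.88 (SE 0.183, adjusted p 1.6e-06). All adjusted p-values are from edgeR's quasi-likelihood test.

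Of the 8 calcium and energy genes, Atp2a1, Ryr1 and Eno3 were tested and rose, and Casq1, Pvalb, Ckm, Ckmt2 and Cox6a2 did not pass the filter on low counts. Atp2a1, the calcium pump of fast fibres (chromosome 7, 126445858 to 126463108, minus strand), averaged 162 ± 52.2 CPM in Myog-positive cells and 18.3 ± 12.4 CPM in Pax7/Myf5 cells (SD, n = 4; log2 fold change 3.21, SE 0.304, adjusted p 1.2e-06 in edgeR's test). Ryr1, the calcium release channel, averaged 65.5 ± 14.1 CPM in Myog-positive cells and 13.2 ± 5.81 CPM in Pax7/Myf5 cells (log2 fold change 2.25, SE 0.246). Eno3, muscle enolase (chromosome 11, 70657202 to 70662513, plus strand), averaged 339 ± 217 CPM in Myog-positive cells and 97.6 ± 42.6 CPM in Pax7/Myf5 cells (log2 fold change 1.72, SE 0.29). Actn3, the fast alpha-actinin of the Z disc, averaged 119 ± 48.9 CPM in Myog-positive cells and 45.9 ± 8.67 CPM in Pax7/Myf5 cells (log2 fold change 1.43, SE 0.22). In contrast, Mybpc1 was not called (63.8 ± 25.4 CPM in Myog-positive and 88.5 ± 17.2 CPM in Pax7/Myf5 cells, log2 fold change -0.60, SE 0.232, adjusted p 0.0662).

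**Figure D3:**
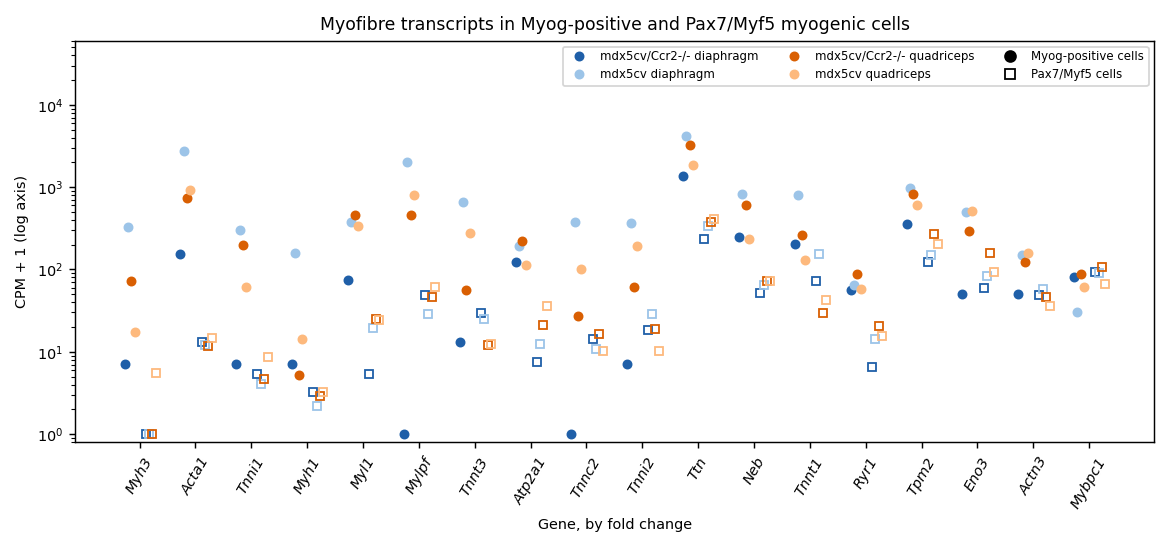
CPM plus 1, on a log axis, of the 18 tested members in Myog-positive cells (filled circles) and Pax7/Myf5 cells (open squares), 1 point per library, ordered by fold change. Acta1 and Ttn separate in every library, Mylpf is absent from the Myog-positive cells of the mdx5cv/Ccr2-/- diaphragm, and Mybpc1 is lower in Myog-positive cells in 4 of 4 libraries without passing the test.

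The Myog-positive cells differed widely among themselves. The summed member UMIs per cell had a lowest, median and highest value of 3, 34.5 and 159 in the mdx5cv/Ccr2-/- and 0, 84 and 1958 in the mdx5cv diaphragm, and of 0, 68 and 807 in the mdx5cv/Ccr2-/- and 17, 50 and 652 in the mdx5cv quadriceps. The 3 richest cells held 63.7% of the class's member UMIs in the mdx5cv/Ccr2-/- and 34.6% in the mdx5cv diaphragm, and 34.8% in the mdx5cv/Ccr2-/- and 73.2% in the mdx5cv quadriceps. The 2 libraries in which 3 cells held most of the sum were those with 10 and 12 cells. Tcap (titin cap), Myl3 and Ckmt2 had no UMI in Myog-positive cells of any library. Ckm, muscle creatine kinase, had 68 UMIs (87.4 CPM) in 24% of these cells of the mdx5cv diaphragm, 5 UMIs in the mdx5cv/Ccr2-/- quadriceps and none in the other 2 libraries.

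Genes outside the 34 moved in the same comparison. Of 40 other sarcomere and myofibre genes, 22 were tested, of which 17 were higher and 1, Dmd (dystrophin, mutated in all groups), was lower in Myog-positive cells, with a median log2 fold change of 3.38. Klhl41, a stabiliser of nebulin, averaged 134 CPM in Myog-positive and 0.687 CPM in Pax7/Myf5 cells (log2 fold change 7.49, SE 0.458), the alpha-tropomyosin gene Tpm1 957 CPM in Myog-positive and 356 CPM in Pax7/Myf5 cells (1.34, SE 0.217), and Cacng1, a subunit of the calcium channel, 177 CPM in Myog-positive and 63.3 CPM in Pax7/Myf5 cells (1.48, SE 0.150). Of 16 fusion and early differentiation genes, 15 were tested, 13 were higher and 1, Cdh15, was lower. Actc1, the cardiac actin used by young muscle cells, averaged 776 CPM in Myog-positive and 0.777 CPM in Pax7/Myf5 cells, and the cell cycle inhibitor Cdkn1c averaged 3915 CPM in Myog-positive and 1098 CPM in Pax7/Myf5 cells. Des (desmin) had a log2 fold change of 0.53 (SE 0.187, adjusted p 0.0472 in edgeR's test).

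All 12 stem cell genes were tested, and 11 were lower and none higher, with a median log2 fold change of -2.92. Vcam1, an adhesion receptor, averaged 140 CPM in Myog-positive and 454 CPM in Pax7/Myf5 cells, and Sdc4, a cell surface proteoglycan, 169 CPM in Myog-positive and 240 CPM in Pax7/Myf5 cells. Itga7, an integrin subunit, was not called, with 122 CPM in Myog-positive and 108 CPM in Pax7/Myf5 cells.

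Which myofibre transcripts of Pax7/Myf5 cells exceed what other cells carry was tested against fibroblasts. 12 of 26 tested members were higher in Pax7/Myf5 cells and 1 was lower, where 19.7% of all 13902 genes were called higher and 27% lower (edgeR's test). Mybpc1 averaged 88.5 ± 17.2 CPM in Pax7/Myf5 cells and 0.494 ± 0.453 CPM in fibroblasts (SD, n = 4; log2 fold change 7.34, SE 0.461, adjusted p 2.67e-06 in edgeR's test). Ttn averaged 337.5 ± 75.8 CPM in Pax7/Myf5 cells and 3.94 ± 1.96 CPM in fibroblasts (log2 fold change 6.43, SE 0.381, adjusted p 1.88e-06), and Actn3 45.9 ± 8.67 CPM in Pax7/Myf5 cells and 0.858 ± 0.183 CPM in fibroblasts (5.73, SE 0.213, adjusted p 1.43e-07). Neb, Ryr1, Eno3, Atp2a1, Tnnt1 and Tnni1 were higher by 3.09 to 4.92 on the log2 scale.

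Acta1 was not called. It averaged 11.9 ± 1.36 CPM in Pax7/Myf5 cells and 19.5 ± 13.8 CPM in fibroblasts (log2 fold change -0.48, SE 0.472, adjusted p 0.428 in edgeR's test). Tnnc2, Tnnt3, Myl1 and Ckm were not called either (log2 fold changes 0.30, 0.63, 1.05 and -0.00). Mylpf was called with a smaller fold (1.61, SE 0.453, adjusted p 0.0174), and lost the call without the mdx5cv/Ccr2-/- diaphragm. Tpm2 was called at 0.44 (SE 0.136, adjusted p 0.026), but per cell it was higher in only 1 of 4 libraries and the call was lost on UMIs per cell. Myl2, the slow regulatory light chain, was the 1 member called lower (0.269 ± 0.316 CPM in Pax7/Myf5 cells and 2.21 ± 2.40 CPM in fibroblasts, log2 fold change -2.75, SE 0.789, adjusted p 0.0189), and this call was lost with DESeq2.

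Shares of cells with a UMI gave the same split at equal depth. Median depths were 12086.5 to 18816.5 UMIs in Myog-positive cells, 5700 to 6431 in Pax7/Myf5 cells and 6707 to 14366.5 in fibroblasts, so each cell was thinned to 2000 UMIs and shallower cells were left out (1 to 4 Myog-positive cells, 4 to 18 Pax7/Myf5 cells and 30 to 251 fibroblasts per library). A Ttn UMI was then found in 55.6% to 89.2% of Myog-positive cells, 13.1% to 27.7% of Pax7/Myf5 cells and 0.292% to 0.953% of fibroblasts. Unthinned, these ranges were 87.8% to 92% for Myog-positive cells, 29.7% to 41.1% for Pax7/Myf5 cells and 1.61% to 3.35% for fibroblasts. An Acta1 UMI was found in 2.31% to 4.09% of thinned Pax7/Myf5 cells, 0.584% to 4.70% of fibroblasts and 1.18% to 6.23% of endothelial cells, so its share in Pax7/Myf5 cells lay within the background. In Myog-positive cells it was found in 36.4% to 47.8% in 3 libraries, and in 0 of the 9 thinned cells of the mdx5cv/Ccr2-/- diaphragm. Intervals and limits here cover counting error only, and for CPM ratios they take each UMI as independent.

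Against fibroblasts, 23 of 28 tested members were higher in Myog-positive cells and 1 was lower, where 15.5% of all 13715 genes were called higher and 30.1% lower. Myh3 averaged 104 ± 148 CPM in Myog-positive cells and 0.0892 ± 0.0916 CPM in fibroblasts (SD, n = 4; log2 fold change 9.73, SE 0.576, adjusted p 2.03e-14 in edgeR's test). Here, too, Myh3 passed the filter on low counts only through Myog-positive cells. Acta1 had a log2 fold change of 5.62 (SE 0.455, adjusted p 2.22e-11 in edgeR's test). Members that had been too rare for the first comparison now passed: Tnnc1, Actn2, Myh8, Ckm and Cox6a2 were higher by 1.78 to 4.30 on the log2 scale, and of these Tnnc1, Ckm and Cox6a2 lost the call without the mdx5cv diaphragm. Tcap was called lower, but it rests on 0 UMIs in Myog-positive cells. A count of 0 there allows 3.86 to 18.5 CPM per library, above or close to the 0.739 to 4.0 CPM of fibroblasts, so a difference was not detectable at this depth.

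Without Tpm2, the member UMIs of fibroblasts, endothelial cells and macrophages shared much of their make-up. As a measure, the shares of the 33 genes (without Tpm2) in the member UMIs of a class were compared between classes of a library, as the percentage of UMIs that would have to change gene. Endothelial cells and fibroblasts differed by 16.3% in the mdx5cv/Ccr2-/- and 17.2% in the mdx5cv diaphragm, and by 8.16% in the mdx5cv/Ccr2-/- and 24.7% in the mdx5cv quadriceps. Single barcodes weigh on these distances. In endothelial cells 1 barcode held 839 of 1584 member UMIs (with Tpm2) in the mdx5cv diaphragm and 1 held 1591 of 5681 in the mdx5cv/Ccr2-/- quadriceps. In fibroblasts of the mdx5cv diaphragm 1 barcode held 1378 of 17537. Distances without these barcodes were not computed. Pax7/Myf5 cells and fibroblasts differed by 61.8% in the mdx5cv/Ccr2-/- and 73.1% in the mdx5cv diaphragm, and by 73.5% in the mdx5cv/Ccr2-/- and 56.9% in the mdx5cv quadriceps. The Pax7/Myf5 distances lay above all distances among the 3 non-myogenic classes, of which the largest was 40.0% between macrophages and endothelial cells in the mdx5cv quadriceps. This separation rests on leaving out Tpm2. Over all 34 genes endothelial cells and fibroblasts differed by 40.5% in the mdx5cv/Ccr2-/- and 40.3% in the mdx5cv diaphragm, and by 52.6% in the mdx5cv/Ccr2-/- and 59.4% in the mdx5cv quadriceps, and Pax7/Myf5 cells differed from the non-myogenic classes by 49.9% to 73.5%, so that the ranges overlapped. Without Tpm2, Myog-positive cells differed from fibroblasts by 36.7% to 71.4% and from Pax7/Myf5 cells by 29.2% to 40.2%.

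Several members nonetheless differed between non-myogenic classes, in comparisons chosen after the class values had been seen. Of 25 members tested between macrophages or monocytes and endothelial cells, 5 were higher and 9 lower, where 33.5% of all 13610 genes were called higher and 35.5% lower, so that neither count stands clearly above the background. Ryr1 stood at 2.59 CPM in macrophages or monocytes of the mdx5cv/Ccr2-/- and 4.08 CPM of the mdx5cv diaphragm, and at 7.54 CPM of the mdx5cv/Ccr2-/- and 7.26 CPM of the mdx5cv quadriceps. In endothelial cells it had 0 to 3 UMIs per library (at most 0.632 CPM). After thinning to 2000 UMIs, 0.248% to 1.59% of macrophages or monocytes and at most 0.142% of endothelial cells had a UMI. The classes did not overlap in CPM (log2 fold change 4.65, SE 0.608, adjusted p 0.000433 in edgeR's test). Macrophages or monocytes held 27.4% of all Ryr1 UMIs past the cell filter. Ryr1 was also seen in other immune classes. Dendritic cells had 16.9 CPM in the mdx5cv/Ccr2-/- and 22.3 CPM in the mdx5cv diaphragm, and 13.7 CPM in the mdx5cv/Ccr2-/- and 36.1 CPM in the mdx5cv quadriceps. B cells had 23.0 CPM in the mdx5cv/Ccr2-/- and 31.8 CPM in the mdx5cv diaphragm, and 5.44 CPM in the mdx5cv/Ccr2-/- and 24.7 CPM in the mdx5cv quadriceps, the quadriceps values from 1 and 2 UMIs. Tnni2 was higher than Ryr1 in dendritic cells. It had 148 CPM there in the mdx5cv/Ccr2-/- and 174 CPM in the mdx5cv diaphragm, and 91.5 CPM in the mdx5cv/Ccr2-/- and 180 CPM in the mdx5cv quadriceps. Between 53.8% and 76.7% of dendritic cells had a Tnni2 UMI. They held 0.911% to 9.52% of a library's Tnni2 UMIs. Cox6a2, a cytochrome oxidase subunit of heart and skeletal muscle, was also higher in macrophages or monocytes than in endothelial cells (8.47 ± 1.70 CPM in macrophages or monocytes and 4.84 ± 4.16 CPM in endothelial cells, SD, n = 4, log2 fold change 1.43, SE 0.475, adjusted p 0.0303 in edgeR's test).

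The 9 lower calls, among them Mylpf and Acta1, depend on the scale. On UMIs per cell, 9 members were higher and 0 lower in macrophages or monocytes, whose cells had a median of 6908.5 to 11691.5 UMIs, against 2733 to 4777.5 in endothelial cells. In 2 libraries a single barcode weighed on the endothelial sums. It held 839 of the 1584 member UMIs of the class in the mdx5cv diaphragm and 1591 of 5681 in the mdx5cv/Ccr2-/- quadriceps. Without the mdx5cv/Ccr2-/- quadriceps 3 members were called lower, and without the mdx5cv diaphragm 4.

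Mural cells, the pericytes and smooth muscle cells of vessels, were the main carriers of Tpm2 per cell. Tpm2 had 7512 CPM in mural cells of the mdx5cv/Ccr2-/- and 6423 CPM of the mdx5cv diaphragm, and 3406 CPM of the mdx5cv/Ccr2-/- and 3283 CPM of the mdx5cv quadriceps. In endothelial cells it had 17.2 CPM in the mdx5cv/Ccr2-/- and 35.7 CPM in the mdx5cv diaphragm, and 36.8 CPM in the mdx5cv/Ccr2-/- and 19.0 CPM in the mdx5cv quadriceps. The log2 fold change was 7.50 (SE 0.347, adjusted p 3.07e-08 in edgeR's test). Mural cells held 32.7% and fibroblasts 40.7% of the Tpm2 UMIs past the cell filter, against 3.49% in Myog-positive cells. 

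Tcap, which anchors titin at the Z disc (chromosome 11, 98383811 to 98384953, plus strand), was likewise higher in mural cells. It had 50.5 CPM in those of the mdx5cv/Ccr2-/- and 85.9 CPM in those of the mdx5cv diaphragm, and 32.9 CPM in the mdx5cv/Ccr2-/- and 37.4 CPM in the mdx5cv quadriceps, against 0.802 to 9.79 CPM in endothelial cells (log2 fold change 3.22, SE 0.443, adjusted p 0.00012 in edgeR's test). In all, 5 of 17 tested members were higher and 8 lower in mural cells, where 24.3% of all 11562 genes were called higher and 25.7% lower. The lower ones were Mylpf, Acta1, Tnnc2, Tnni2, Tnnt3, Atp2a1, Ckm and Myl1, and the other higher ones Myh2, Tnnt1 and Eno3. Without the mdx5cv/Ccr2-/- quadriceps 2 members were called higher.

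A large part of the member UMIs lay in few barcodes. The richest 1% of barcodes held 39.4% of the member UMIs in the mdx5cv/Ccr2-/- and 57.6% in the mdx5cv diaphragm, and 59.97% in the mdx5cv/Ccr2-/- and 52.7% in the mdx5cv quadriceps. This ranking counts Tpm2, so its shares are not those of fibre RNA alone. In the mdx5cv/Ccr2-/- diaphragm, for example, 80 mural cells held 4162 Tpm2 UMIs. Barcodes in which the members made up at least 10% of UMIs numbered 7 in the mdx5cv/Ccr2-/- and 22 in the mdx5cv diaphragm, and 67 in the mdx5cv/Ccr2-/- and 12 in the mdx5cv quadriceps. These held 13.1% of all member UMIs in the mdx5cv/Ccr2-/- and 18.5% in the mdx5cv diaphragm, and 48.6% in the mdx5cv/Ccr2-/- and 24.6% in the mdx5cv quadriceps.

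Of these 108 fibre-rich barcodes, 1 fell into a myogenic class and 102 into none. Their median UMI count was 1210 to 1866.5, and their median mitochondrial share 0.108% to 0.717%. In the barcode with the highest share, the members made up 43.2% of UMIs (mdx5cv/Ccr2-/- quadriceps). Genes differed in how much of them lay there. The mdx5cv/Ccr2-/- quadriceps had 71.3% of its Mylpf, 77.3% of its Tnnt3, 79.0% of its Ckm and 75.1% of its Pvalb UMIs in these barcodes, and 40.6% of its Actn3, 39.8% of its Atp2a1, 28.9% of its Casq1 and 26.5% of its Eno3 UMIs. Ttn and Neb, by contrast, had 1.96% and 5.78% of theirs in them, and Myh3 and Myh8 had none in any library. These barcodes were chosen by member UMIs, and the values describe them without a test.

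Between genotypes, the summed level ran opposite ways in the 2 muscles. In the diaphragm the CPM ratio of mdx5cv/Ccr2-/- over mdx5cv was 0.615 (95% interval 0.606 to 0.624) for all members and 0.450 without Tpm2, from 228 CPM in the mdx5cv/Ccr2-/- and 506 CPM in the mdx5cv library. In the quadriceps it was 2.90 (2.85 to 2.94) for all members and 3.70 without Tpm2, with 856 CPM in the mdx5cv/Ccr2-/- and 231 CPM in the mdx5cv library. Fibre-rich barcodes moved with this, and without them the ratio for all members was 0.655 in the diaphragm and 1.98 in the quadriceps, and without Tpm2 it was 0.451 in the diaphragm and 2.41 (2.35 to 2.47) in the quadriceps. The number of Myog-positive cells moved with it too, at 10 in the mdx5cv/Ccr2-/- and 50 in the mdx5cv diaphragm, and 41 in the mdx5cv/Ccr2-/- and 12 in the mdx5cv quadriceps. Their part in the ratio was not tested beyond these values.

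In the diaphragm, 33 members had at least 50 UMIs over the 2 libraries. 1 was past 2-fold higher in mdx5cv/Ccr2-/- and 11 past 2-fold lower, where 1.29% and 3.08% of all such genes were past these bounds. In the quadriceps, 21 of 29 members were past 2-fold higher and 0 lower, where 2.48% of all such genes were higher and 2.14% lower. Without the fibre-rich barcodes 14 of 27 were higher in the quadriceps, and Actn3, Atp2a1, Myh4, Tnni2, Myoz1 and Cox6a2 were no longer past 2-fold and Mybpc2 had under 50 UMIs. No member was past 2-fold in the same direction in both muscles, and 7 were past it in opposite directions: Acta1, Actn3, Myh3, Mylpf, Neb, Ttn and Tnni1. The joint share over all genes is not given here, so whether these joint counts are unusual was not tested. Median log2 ratios (with 5 CPM added) were -0.44 over the members and 0.02 over all genes in the diaphragm, and 0.66 over the members and 0.06 over all genes in the quadriceps.

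**Figure D4:**
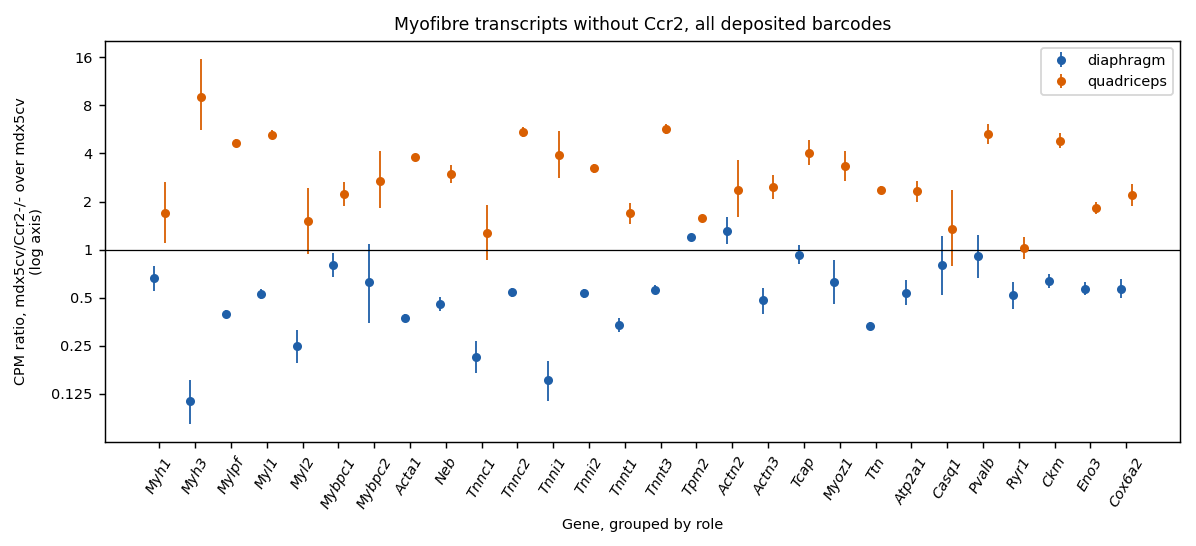
CPM ratio of mdx5cv/Ccr2-/- over mdx5cv for each member with at least 50 UMIs in both muscles, on a log axis, in the diaphragm (blue) and the quadriceps (orange), over all deposited barcodes, with 95% intervals of counting error. The quadriceps points lie above 1, from 1.03 for Ryr1 to 9.07 for Myh3, and the diaphragm points below 1 except those of Tpm2 at 1.21 and Actn2 at 1.32.

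Among the thin filament genes, Acta1 had 34.3 CPM in the mdx5cv/Ccr2-/- and 91.6 CPM in the mdx5cv diaphragm (ratio 0.375, 0.358 to 0.392), and 109 CPM in the mdx5cv/Ccr2-/- and 28.8 CPM in the mdx5cv quadriceps (ratio 3.78). The slow troponins were low in the mdx5cv/Ccr2-/- diaphragm, with ratios to the mdx5cv diaphragm of 0.151 for Tnni1, 0.213 for Tnnc1 and 0.337 for Tnnt1, and the fast ones less so, with 0.533 for Tnni2, 0.539 for Tnnc2 and 0.561 for Tnnt3. In the quadriceps the ratios of mdx5cv/Ccr2-/- over mdx5cv were 3.23 for Tnni2, 5.46 for Tnnc2 and 5.72 for Tnnt3 among the fast ones, and 3.92 for Tnni1, 1.69 for Tnnt1 and 1.28 for Tnnc1 among the slow ones, so that the 2 sets overlapped. Without the fibre-rich barcodes the fast ratios were 1.56 for Tnni2 and 3.18 for Tnnt3. Tpm2 was nearer to even, at 170 CPM in the mdx5cv/Ccr2-/- and 141 CPM in the mdx5cv diaphragm (ratio 1.21, 1.17 to 1.24), and 226 CPM in the mdx5cv/Ccr2-/- and 142 CPM in the mdx5cv quadriceps (ratio 1.59, 1.54 to 1.63). Neb had ratios of 0.457 in the diaphragm and 2.97 in the quadriceps.

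Of the thick filament genes, Mylpf had 25.6 CPM in the mdx5cv/Ccr2-/- and 64.3 CPM in the mdx5cv diaphragm (ratio 0.398, 0.377 to 0.420), and 151 CPM in the mdx5cv/Ccr2-/- and 32.4 CPM in the mdx5cv quadriceps (ratio 4.67, 4.44 to 4.91; 2.82 without the fibre-rich barcodes). Myl1 (chromosome 1, 66924295 to 66945404, minus strand) had 17.3 CPM in the mdx5cv/Ccr2-/- and 32.9 CPM in the mdx5cv diaphragm (ratio 0.526), and 94.4 CPM in the mdx5cv/Ccr2-/- and 18 CPM in the mdx5cv quadriceps (ratio 5.24). The slow light chains Myl2 and Myl3 had ratios of 0.248 and 0.0959 in the diaphragm, where 1 barcode of the mdx5cv library held 223 of the 458 Myl2 UMIs and 1 held 178 of the 314 Myl3 UMIs. Without the barcode that holds most UMIs of the gene in each library the ratios were 0.460 for Myl2 and 0.201 for Myl3, and without the fibre-rich barcodes 0.607 for Myl2, no longer past 2-fold, and 0.307 for Myl3. Mybpc1 had ratios of 0.798 in the diaphragm and 2.23 in the quadriceps, and Mybpc2, its fast counterpart, 2.71 in the quadriceps.

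At the Z disc, Ttn had 25.3 CPM in the mdx5cv/Ccr2-/- and 75.7 CPM in the mdx5cv diaphragm (ratio 0.334), and 81.6 CPM in the mdx5cv/Ccr2-/- and 34.5 CPM in the mdx5cv quadriceps (ratio 2.37). Tcap had 4.94 CPM in the mdx5cv/Ccr2-/- and 5.32 CPM in the mdx5cv diaphragm (ratio 0.930), and 10.3 CPM in the mdx5cv/Ccr2-/- and 2.54 CPM in the mdx5cv quadriceps (ratio 4.05, or 2.31 without the fibre-rich barcodes). Myoz1, a calcineurin-binding protein of fast fibres, had ratios of 0.629 in the diaphragm and 3.33 in the quadriceps, and Actn3 of 0.480 in the diaphragm and 2.46 in the quadriceps.

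Pvalb, the calcium buffer of fast fibres (chromosome 15, 78191114 to 78206400, minus strand), had the most UMIs of the calcium genes over the 4 libraries, 1858, but 1446 of them lay in the mdx5cv/Ccr2-/- quadriceps, and in each of the other 3 libraries Atp2a1 and Ryr1 had more. It had 1.07 CPM in the mdx5cv/Ccr2-/- and 1.17 CPM in the mdx5cv diaphragm (ratio 0.912), and 21.8 CPM in the mdx5cv/Ccr2-/- and 4.11 CPM in the mdx5cv quadriceps (ratio 5.30, 4.61 to 6.11; 2.92 without the fibre-rich barcodes). Atp2a1 had 2.55 CPM in the mdx5cv/Ccr2-/- and 4.75 CPM in the mdx5cv diaphragm, and 10.3 CPM in the mdx5cv/Ccr2-/- and 4.47 CPM in the mdx5cv quadriceps. Ryr1 was even in the quadriceps (ratio 1.03, 0.872 to 1.21). Casq1, the calcium store protein, had ratios of 0.804 in the diaphragm and 1.35 in the quadriceps.

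Of the energy genes, Eno3 had 9.06 CPM in the mdx5cv/Ccr2-/- and 15.9 CPM in the mdx5cv diaphragm (ratio 0.568), and 24.8 CPM in the mdx5cv/Ccr2-/- and 13.7 CPM in the mdx5cv quadriceps (ratio 1.81). Ckm (chromosome 7, 19404776 to 19422841, plus strand) had 8.30 CPM in the mdx5cv/Ccr2-/- and 13.0 CPM in the mdx5cv diaphragm (ratio 0.639), and 33.5 CPM in the mdx5cv/Ccr2-/- and 6.99 CPM in the mdx5cv quadriceps (ratio 4.80, or 2.74 without the fibre-rich barcodes). Cox6a2 had ratios of 0.570 in the diaphragm and 2.20 in the quadriceps. Ckmt2, the mitochondrial creatine kinase, had 45 UMIs in the mdx5cv/Ccr2-/- and 122 in the mdx5cv diaphragm, and 25 in the mdx5cv/Ccr2-/- and 10 in the mdx5cv quadriceps.

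Within Pax7/Myf5 cells the summed genotype ratios were nearer to 1 than those of the whole libraries. Per cell, the summed UMIs without Tpm2 had a ratio of mdx5cv/Ccr2-/- over mdx5cv of 0.927 (0.844 to 1.02) in the diaphragm and 0.984 (0.916 to 1.06) in the quadriceps. On this scale the whole libraries had 0.615 in the diaphragm and 3.39 in the quadriceps. In the diaphragm other classes were as near to 1, with 1.03 in fibroblasts and 0.956 in macrophages or monocytes, but 0.550 in endothelial cells. In the quadriceps these classes had 2.80 in fibroblasts, 2.68 in macrophages or monocytes and 5.13 in endothelial cells. In CPM, 1 of 10 members was past 2-fold lower in the diaphragm (background 0.829%) and none higher (background 0.535%), and 0 of 12 were past it either way in the quadriceps (background 1.95% higher and 0.327% lower). The 1 was Tnnt1, with 70.5 CPM in the mdx5cv/Ccr2-/- and 154 CPM in the mdx5cv diaphragm. Ttn had ratios of 0.704 (0.598 to 0.826) in the diaphragm and 0.940 (0.842 to 1.05) in the quadriceps. The CPM ratio of all members was 0.764 in the diaphragm and 1.11 in the quadriceps, and without the richest barcode of each library 0.640 in the diaphragm and 1.35 in the quadriceps.

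In fibroblasts, endothelial cells and macrophages or monocytes the quadriceps members were higher without Ccr2. Past 2-fold higher in mdx5cv/Ccr2-/- were 8 of 12 members in fibroblasts (background 2.33%), 11 of 16 in endothelial cells (background 1.08%) and 10 of 16 in macrophages or monocytes (background 4.46%), and none was lower (backgrounds 1.88%, 0.855% and 2.21%). The sum of all members had a ratio of 1.63 in fibroblasts, 4.5 in endothelial cells and 2.58 in macrophages or monocytes. Without the richest barcode of each library it was 1.54 in fibroblasts, 3.49 in endothelial cells and 2.19 in macrophages or monocytes. In the diaphragm the ratio of the sums was 0.786 in fibroblasts, 0.385 in endothelial cells and 0.654 in macrophages or monocytes, and without the richest barcode 0.840 in fibroblasts, 0.781 in endothelial cells and 0.655 in macrophages or monocytes. In endothelial cells of the diaphragm 7 of 10 members were past 2-fold lower (background 1.92%), but 1 of 10 without that barcode, and in fibroblasts 5 of 26 (background 2.33%), but 1 of 25 without it. In macrophages or monocytes 1 of 13 was lower (background 2.28%). None was higher in endothelial cells (background 0.503%) or macrophages or monocytes (background 3.48%), and 1, Myh1, was in fibroblasts (background 0.517%). These values are in CPM, and in the diaphragm they depend on the scale. On UMIs per cell the diaphragm ratio of the sums was 1.15 (1.12 to 1.17) in fibroblasts and 0.561 in endothelial cells. In macrophages or monocytes it was 0.987 (0.910 to 1.07). The quadriceps ratios per cell were 1.53 in fibroblasts, 4.52 in endothelial cells and 2.67 in macrophages or monocytes.

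Between muscles, 4 members separated diaphragm from quadriceps the same way in both genotypes. Past 2-fold higher in the diaphragm in both were Actn2 and Myh1, and lower Myh4 and Pvalb. In mdx5cv/Ccr2-/-, 3 of 32 members were higher and 21 lower in the diaphragm, where 5.03% of all genes tested were higher and 10% lower. In mdx5cv, 16 of 31 were higher and 2 lower, where 6.53% were higher and 7.84% lower. Another 8 members were past 2-fold in opposite directions in the 2 genotypes. For these joint counts, too, the share over all genes is not given, and whether they are unusual was not tested. Without the fibre-rich barcodes, and likewise without the barcode that holds most UMIs of the gene in each library, Actn2, Myh1, Myh4 and Pvalb still passed. Ckmt2 and Myl2 were then past 2-fold higher in the diaphragm in both genotypes as well. The comparisons of genotype and of muscle share libraries, so the 2 sets of counts are not independent.

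Actn2, the alpha-actinin of all fibre types (chromosome 13, 12269426 to 12340760, minus strand), had 3.27 CPM in the mdx5cv/Ccr2-/- diaphragm and 1.43 CPM in the mdx5cv/Ccr2-/- quadriceps (ratio 2.28), and 2.48 CPM in the mdx5cv diaphragm and 0.603 CPM in the mdx5cv quadriceps (ratio 4.12). Its UMIs lay mostly outside muscle cells. T and NK cells held 158 of the 220 Actn2 UMIs of the mdx5cv/Ccr2-/- and 126 of the 229 of the mdx5cv diaphragm, and 32 of the 95 of the mdx5cv/Ccr2-/- and 22 of the 34 of the mdx5cv quadriceps, with a UMI in 15.7% to 41.7% of these cells. In endothelial cells, at like median depths (3261 to 5110 UMIs in T and NK cells and 2733 to 4777.5 in endothelial cells), at most 0.539% had one. T and NK cells numbered 175 in the mdx5cv/Ccr2-/- diaphragm and 121 in the mdx5cv/Ccr2-/- quadriceps, and 279 in the mdx5cv diaphragm and 60 in the mdx5cv quadriceps, and the part of these numbers in the Actn2 ratios was not tested.

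Pvalb had a ratio of diaphragm over quadriceps of 0.0490 (0.0381 to 0.0621) in mdx5cv/Ccr2-/- and 0.285 (0.224 to 0.359) in mdx5cv. In mdx5cv the slow genes were among the largest ratios, with 9.34 for Myl2, 96.0 (26.4 to 797) for Myl3, 7.67 for Tnnc1 and 6.79 for Tnni1. Myl3 had 314 UMIs in the mdx5cv diaphragm, against 2 in the mdx5cv quadriceps. Without the fibre-rich barcodes the ratios were 3.81 for Myl2 and 30.0 for Myl3, which had 98 UMIs in the mdx5cv diaphragm and 2 in the mdx5cv quadriceps, and without the barcode that holds most Myl2 UMIs in each library the Myl2 ratio was 5.32. Myh1 had 2.60 CPM in the diaphragm and 0.995 CPM in the quadriceps of mdx5cv/Ccr2-/- (ratio 2.61), and 3.93 CPM in the diaphragm and 0.585 CPM in the quadriceps of mdx5cv (ratio 6.71).

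Within Pax7/Myf5 cells of mdx5cv/Ccr2-/-, 2 of 11 members were past 2-fold higher (background 0.9%) and 3 lower (background 2.87%) in the diaphragm, and of mdx5cv 3 of 12 were higher (background 1.7%) and 2 lower (background 1.57%). Tnnt1 was past 2-fold higher in the diaphragm in both genotypes, with 70.5 CPM in the diaphragm and 28.4 CPM in the quadriceps of mdx5cv/Ccr2-/- (ratio 2.48, 1.72 to 3.58), and 154 CPM in the diaphragm and 41.1 CPM in the quadriceps of mdx5cv (ratio 3.74, 2.78 to 5.12). Tnnt3 was the other member higher in both genotypes. In the mdx5cv/Ccr2-/- diaphragm it rests on 26 UMIs in 6 cells, and without the richest barcode of each library it had 10 UMIs there and 23 in the mdx5cv/Ccr2-/- quadriceps (ratio 1.07, 0.453 to 2.33). Without that barcode 1 of 9 members was higher and 4 lower in mdx5cv/Ccr2-/-. Fibroblasts of mdx5cv/Ccr2-/- had 5 of 20 members higher (background 5.36%) and 1 lower (background 6.04%) in the diaphragm, and those of mdx5cv 19 of 23 higher (background 7.1%) and 0 lower (background 5.59%). Endothelial cells of mdx5cv/Ccr2-/- had 2 of 16 higher (background 2.7%) and 11 lower (background 2.38%), or 5 of 15 lower without the richest barcode of each library, and those of mdx5cv 8 of 10 higher (background 3.69%) and 0 lower (background 1.43%). Macrophages or monocytes of mdx5cv/Ccr2-/- had 1 of 14 higher (background 3.36%) and 3 lower (background 2.97%), and those of mdx5cv 8 of 15 higher (background 3.02%) and 0 lower (background 1.67%).

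Most myosin heavy chain genes lie side by side on chromosome 11 (Myh3, Myh2, Myh1, Myh4 and Myh8, 67078300 to 67308634, plus strand), with the slow Myh7 on chromosome 14 (54970684 to 54994626, minus strand). As shares of the heavy chain UMIs, Myh4 and Myh1 separated the muscles and Myh3 did not. Tags at the 3′ end do not scale with transcript length, so shares can be set side by side. The 6 genes had 395 UMIs in the mdx5cv/Ccr2-/- and 1051 in the mdx5cv diaphragm, and 517 in the mdx5cv/Ccr2-/- and 131 in the mdx5cv quadriceps.

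Myh4, the chain of the fastest fibres (67238029 to 67260446), held 2.28% (1.05 to 4.28) of them in the mdx5cv/Ccr2-/- and 2.95% in the mdx5cv diaphragm, and 41.2% (36.9 to 45.6) in the mdx5cv/Ccr2-/- and 54.2% (45.3 to 62.9) in the mdx5cv quadriceps. Fibre-rich barcodes held 61.0% of the Myh4 UMIs of the mdx5cv/Ccr2-/- and 28.2% of those of the mdx5cv quadriceps, and none in the diaphragm. Heavy chain shares without these barcodes were not computed. Myh1, of fast fibres of another type (67200052 to 67224575), held 44.3% in the mdx5cv/Ccr2-/- and 34.4% in the mdx5cv diaphragm, and 12.8% in the mdx5cv/Ccr2-/- and 25.2% in the mdx5cv quadriceps. Both genes split by muscle, with no overlap between the diaphragm and the quadriceps libraries.

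Myh2, of fast oxidative fibres (67171027 to 67197517), held 25.3% (21.1 to 29.9) in the mdx5cv/Ccr2-/- and 4.19% (3.06 to 5.58) in the mdx5cv diaphragm, and 2.71% in the mdx5cv/Ccr2-/- and 3.82% in the mdx5cv quadriceps. The quadriceps values rest on few UMIs, many of them in mural cells. Mural cells held 8 of the 14 Myh2 UMIs of the mdx5cv/Ccr2-/- and 3 of the 5 of the mdx5cv quadriceps. In the diaphragm they held 4 of 100 in mdx5cv/Ccr2-/- and 0 of 44 in mdx5cv. Myh2 was the 1 member past 2-fold higher without Ccr2 in the diaphragm, with 100 UMIs in the mdx5cv/Ccr2-/- and 44 in the mdx5cv library (CPM ratio 3.11, 2.16 to 4.54). A single barcode held 47 of the 100 UMIs. Without the barcode that holds most Myh2 UMIs in each library the ratio was 1.77 (1.16 to 2.73), no longer past 2-fold, and the Myh2 share was 15.4% (11.7 to 19.6) in the mdx5cv/Ccr2-/- and 3.91% in the mdx5cv diaphragm. Embryonic Myh3 (67078300 to 67102291) held 11.4% (8.43 to 14.9) in the mdx5cv/Ccr2-/- and 52.1% (49.1 to 55.2) in the mdx5cv diaphragm, and 37.1% (33 to 41.5) in the mdx5cv/Ccr2-/- and 13.7% (8.35 to 20.8) in the mdx5cv quadriceps. The libraries had the same order by their number of Myog-positive cells (10 in the mdx5cv/Ccr2-/- and 50 in the mdx5cv diaphragm, 41 in the mdx5cv/Ccr2-/- and 12 in the mdx5cv quadriceps), and the intervals of the 2 lowest shares overlapped. These cells held 1 of the 45 Myh3 UMIs of the mdx5cv/Ccr2-/- and 251 of the 548 of the mdx5cv diaphragm. In the quadriceps they held 51 of 192 in mdx5cv/Ccr2-/- and 5 of 18 in mdx5cv. Their part in the Myh3 shares was not tested.

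In CPM over all barcodes Myh3 had 0.668 in the mdx5cv/Ccr2-/- and 5.94 in the mdx5cv diaphragm (45 and 548 UMIs, ratio 0.112, 0.0810 to 0.152), and 2.89 in the mdx5cv/Ccr2-/- and 0.319 in the mdx5cv quadriceps (192 and 18 UMIs, ratio 9.07, 5.59 to 15.6). Without the barcode that holds most Myh3 UMIs in each library the diaphragm ratio was 0.0519. Barcodes that failed the cell filter held 29 of the 45 UMIs in the mdx5cv/Ccr2-/- and 135 of the 548 in the mdx5cv diaphragm, and 98 of the 192 in the mdx5cv/Ccr2-/- and 1 of the 18 in the mdx5cv quadriceps. Perinatal Myh8 (67277124 to 67308634) was rare, with 33 UMIs in the mdx5cv/Ccr2-/- and 39 in the mdx5cv diaphragm, and 29 in the mdx5cv/Ccr2-/- and 4 in the mdx5cv quadriceps. The slow chain Myh7 had 33 UMIs in the mdx5cv/Ccr2-/- and 27 in the mdx5cv diaphragm, and 3 in the mdx5cv/Ccr2-/- and 0 of 131 in the mdx5cv quadriceps, which allows a share of up to 2.29%.

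**Figure D5:**
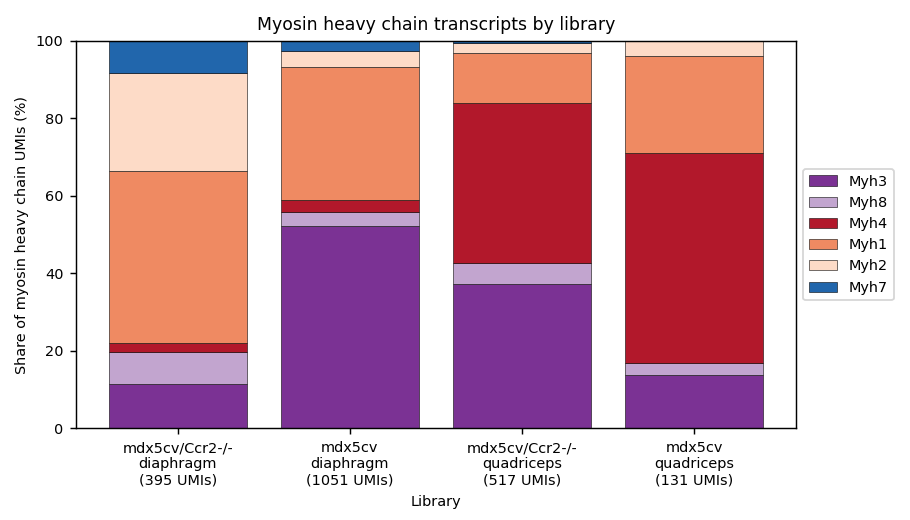
Share of each of the 6 myosin heavy chain genes in their summed UMIs (y axis, percent), by library (x axis, with the UMIs in parentheses). Myh4 holds 41.2% and 54.2% in the mdx5cv/Ccr2-/- and the mdx5cv quadriceps and under 3% in both diaphragm libraries, and Myh3 holds 52.1% in the mdx5cv diaphragm.

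Slow isoforms were a minority in each library. Of the UMIs of 5 slow genes (Myl2, Myl3, Tnnc1, Tnni1, Tnnt1) and 5 fast genes (Mylpf, Myl1, Tnnc2, Tnni2, Tnnt3), the slow ones made up 9.81% in the mdx5cv/Ccr2-/- and 16.9% in the mdx5cv diaphragm, and 2.58% in the mdx5cv/Ccr2-/- and 6.22% in the mdx5cv quadriceps. Both diaphragm values lay above both quadriceps values, and in each muscle the mdx5cv/Ccr2-/- value was the lower. Without the fibre-rich barcodes the shares were 13.9% in the mdx5cv/Ccr2-/- and 17.7% in the mdx5cv diaphragm, and 8.39% in the mdx5cv/Ccr2-/- and 12.6% in the mdx5cv quadriceps, in the same order. Most slow UMIs over all barcodes came from 1 gene, Tnnt1. It held 489 of the 734 slow UMIs of the mdx5cv/Ccr2-/- and 1985 of the 3797 of the mdx5cv diaphragm. In the quadriceps it held 522 of 858 in mdx5cv/Ccr2-/- and 263 of 383 in mdx5cv.

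Pax7/Myf5 cells had a larger slow share than endothelial cells. In Pax7/Myf5 cells slow isoforms made up 40.2% in the mdx5cv/Ccr2-/- and 59.7% in the mdx5cv diaphragm, and 23.1% in the mdx5cv/Ccr2-/- and 30.4% in the mdx5cv quadriceps. In endothelial cells they made up 7.22% in the mdx5cv/Ccr2-/- and 4.24% in the mdx5cv diaphragm, and 1.34% in the mdx5cv/Ccr2-/- and 6.31% in the mdx5cv quadriceps. The ranges of these classes did not overlap. Of the slow genes, Tnnt1 contributed most in Pax7/Myf5 cells, with 64 UMIs in the mdx5cv/Ccr2-/- and 252 in the mdx5cv diaphragm, and 61 in the mdx5cv/Ccr2-/- and 54 in the mdx5cv quadriceps. In Myog-positive cells the slow share was 69.4% of 49 UMIs in the mdx5cv/Ccr2-/- and 25.8% in the mdx5cv diaphragm, and 30.4% in the mdx5cv/Ccr2-/- and 10.4% in the mdx5cv quadriceps.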

How the data were processed

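Mononuclear cells were run on a 10x Genomics 3′ v3.1 workflow per the labels' protocols, and the deposited values are raw UMI counts per gene and barcode, which per the submitters' processing notes come from the authors' run of Cell Ranger 6.1.2 against mm10. How introns and the choice of cells were handled, and from which annotation release, is not given in the sources used here. Gene positions are from GENCODE on GRCm38.

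Class values use the 31077 of 33554 barcodes with at least 500 UMIs, 300 genes and at most 15% mitochondrial UMIs. Library values use all deposited barcodes. A class other than the myogenic ones needed 2 detected markers, 2 more than any other class and no UMI of Pax7, Myf5 or Myog. Doublets were removed only where markers of 2 classes met, and Scrublet (scanpy 1.11.5) served as an alternative. UMIs summed per library and class were tested with edgeR 4.0.16 (TMM scaling, filterByExpr, library as a block, R 4.3.3), checked on simulated data. The p-values measure the spread of a class contrast over 4 libraries, which differ in genotype and muscle. Alternatives were DESeq2 1.42.0 and its size factors, no filter, UMIs per cell, no block, a gate of 1 UMI, and each library left out. Intervals of 95% on CPM ratios are exact and binomial, given the sum of both counts (Clopper-Pearson, scipy 1.17.1). A ratio was past 2-fold at 2 or more or 0.5 or less, with at least 50 UMIs in the 2 libraries, and a count of 0 was taken to allow 3. Depth per library, 56399477 to 92189580 UMIs, sets this counting error.

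The members, the gene lists and the tests were chosen with earlier results of these data known. Each member is named at least once. Full values go to the 2 members of each role set with the most UMIs, to every myosin heavy chain and to members past 2-fold the same way in both muscles or both genotypes. From each list the 3 genes with the most UMIs in Myog-positive cells are named. Dmd, Cdh15 and other members given values were named after their values were seen.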

Additional observations from a re-analysis of the deposited data

Results flagged for a closer look

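The ratio of mdx5cv/Ccr2-/- over mdx5cv ran opposite ways in the 2 muscles, below 1 in the diaphragm and above 1 in the quadriceps with both counting intervals off 1, for each of the following. The difference between muscles was not tested, since each group is 1 library. Over all 34 members the CPM ratio was 0.615 in the diaphragm and 2.90 in the quadriceps, and without Tpm2 it was 0.450 in the diaphragm and 3.70 in the quadriceps. By role set it was 0.514 in the diaphragm and 3.36 in the quadriceps for the heavy chains, 0.435 in the diaphragm and 4.67 in the quadriceps for the light chains and binding proteins, 0.720 in the diaphragm and 2.58 in the quadriceps for the thin filament. It was 0.409 in the diaphragm and 2.52 in the quadriceps for the Z disc and titin, 0.586 in the diaphragm and 2.71 in the quadriceps for calcium handling, and 0.590 in the diaphragm and 2.71 in the quadriceps for energy. The genes past 2-fold both ways were Acta1 with 0.375 in the diaphragm and 3.78 in the quadriceps, Actn3 with 0.480 in the diaphragm and 2.46 in the quadriceps, Myh3 with 0.112 in the diaphragm and 9.07 in the quadriceps, and Mylpf with 0.398 in the diaphragm and 4.67 in the quadriceps. To these came Neb with 0.457 in the diaphragm and 2.97 in the quadriceps, Ttn with 0.334 in the diaphragm and 2.37 in the quadriceps, and Tnni1 with 0.151 in the diaphragm and 3.92 in the quadriceps.

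In CPM the same held for the members' sum within endothelial cells, at 0.385 in the diaphragm and 4.5 in the quadriceps. It also held within fibroblasts, at 0.786 in the diaphragm and 1.63 in the quadriceps. Within macrophages or monocytes the CPM ratios were 0.654 in the diaphragm and 2.58 in the quadriceps. The endothelial CPM ratio of the diaphragm was 0.781 without the barcode richest in members of each library. On UMIs per cell the opposite directions were kept in endothelial cells, with 0.561 in the diaphragm. They were not kept in fibroblasts, with 1.15 (1.12 to 1.17) in the diaphragm. In macrophages or monocytes the diaphragm ratio per cell was 0.987 (0.910 to 1.07), with an interval that held 1.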

How the results depend on the processing

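No paired analysis was possible because the groups share only the replicate number 1. Of the alternatives for single genes in class tests, 793 kept the call, 80 lost it and 6 turned round. The reversals were Tcap in Myog-positive cells against fibroblasts with a gate of 1 UMI (log2 fold change 2.28) and, on UMIs per cell, macrophages or monocytes against endothelial cells for Tnnc2 (0.25), Tpm2 (0.15), Ckm (0.30), Tnnt3 (0.17) and Acta1 (0.43). Without fibre-rich barcodes the Tcap ratio of diaphragm over quadriceps in mdx5cv/Ccr2-/- was 1.05. Past the cell filter the members made up 0.0374% of UMIs in the mdx5cv/Ccr2-/- and 0.0619% in the mdx5cv diaphragm, and 0.104% in the mdx5cv/Ccr2-/- and 0.0356% in the mdx5cv quadriceps. Without fibre-rich barcodes they made up 0.0345% in the mdx5cv/Ccr2-/- and 0.0527% in the mdx5cv diaphragm, and 0.0557% in the mdx5cv/Ccr2-/- and 0.0282% in the mdx5cv quadriceps, and the slow shares were 13.9% in the mdx5cv/Ccr2-/- and 17.7% in the mdx5cv diaphragm, and 8.39% in the mdx5cv/Ccr2-/- and 12.6% in the mdx5cv quadriceps. The share of member UMIs in the 2 myogenic classes was 19.6% with a gate of 1 UMI, 17.4% without the cell filter and 16.8% after Scrublet. On UMIs per cell 2 members were higher and 7 lower without Ccr2 in the diaphragm, and without fibre-rich barcodes 5 were higher in the diaphragm than in the quadriceps of mdx5cv/Ccr2-/-. With a gate of 1 UMI the distance of Myog-positive cells from fibroblasts in the mdx5cv/Ccr2-/- quadriceps was 36.6%. Past the cell filter the richest 1% of barcodes held 38.5% in the mdx5cv/Ccr2-/- diaphragm and 61.0% in the mdx5cv/Ccr2-/- quadriceps. Members lower in Myog-positive than in Pax7/Myf5 cells numbered 1 with no filter on low counts, with Scrublet and without the 2 libraries of 10 and 12 Myog-positive cells. Members lower in Pax7/Myf5 cells than in fibroblasts numbered 0 with DESeq2 or no block, 4 on UMIs per cell and 0 to 2 with each library left out. Members lower in Myog-positive cells than in fibroblasts numbered 0 with DESeq2, UMIs per cell, no block, a gate of 1 UMI or without those 2 libraries, and 0 to 1 with each library left out. For macrophages or monocytes against endothelial cells, UMIs per cell gave 9 higher and 0 lower, no block 2 higher and 2 lower, and leaving out each library 3 to 4 higher and 3 to 8 lower. For mural against endothelial cells, no block gave 2 lower and leaving out each library 2 to 5 higher. Without the barcode richest in members of each library and class, chosen after seeing the data, members past 2-fold between genotypes in the diaphragm numbered 0 higher and 1 lower in fibroblasts, 1 lower in endothelial cells and 2 lower in Pax7/Myf5 cells, and in the quadriceps 1 higher in Pax7/Myf5 cells. Between muscles they numbered 5 lower in endothelial cells and 1 higher in Pax7/Myf5 cells of mdx5cv/Ccr2-/-, and 0 lower in Pax7/Myf5 cells of mdx5cv. Without the barcode that holds most UMIs of the gene in each library, also chosen after seeing the data, 0 members were past 2-fold higher without Ccr2 in the diaphragm and 5 were higher in the diaphragm than in the quadriceps of mdx5cv/Ccr2-/-. The cause of these changes was not tested.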
